A study of Mus musculus with 15 samples.

Results

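The genes described here are the MHC class II set of 10 genes: the invariant chain Cd74, the alpha and beta chains H2-Aa, H2-Ab1 and H2-Eb1, the peptide-loading genes H2-DMa, H2-DMb1, H2-DMb2, H2-Oa and H2-Ob, and the transactivator Ciita. They were taken by name from the 53546 gene symbols of a count table, and all 10 were found. The table holds bulk RNA-seq counts of macrophages positive for CD206, the mannose receptor encoded by Mrc1, sorted from the dura mater, the outer membrane around the brain. The mice were C57BL/6J at the embryonic stage E14.5 or, after birth, at P3, P10, P21 or P56 (P for postnatal day), untreated, with 3 libraries per age and 15 in all. Every mouse at every age carried Cx3cr1GFP/wt, that is, GFP in place of 1 allele of the fractalkine receptor gene, so no age has a group with both Cx3cr1 alleles intact. The series' design text counts 3 to 5 mice for each age but does not tie libraries to animals, so the p-values below measure the spread between libraries. The P56 libraries carry another sequencing project label than those of the other 4 ages, so age and project cannot be told apart in any comparison with P56.

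MHC class II molecules present peptides from the endosomal pathway to CD4 T cells. An alpha and a beta chain assemble around the invariant chain, which fills the peptide groove and guides the complex to endosomes. There proteases cut the invariant chain down to a fragment, H2-DM exchanges that fragment for antigen peptides, and H2-DO, the product of H2-Oa and H2-Ob, restrains H2-DM. Ciita is a coactivator that does not bind DNA itself: it is recruited by RFX, CREB and NF-Y, which sit on paired elements called the X and Y boxes in the promoters of these genes. Dendritic cells, B cells and some macrophages carry class II, and tissue macrophages of the brain borders are known to hold cells with high and with low class II. C57BL/6 mice have a defective H2-Ea gene, so the H2-Eb1 chain has no alpha partner there and H2-E does not reach the cell surface.

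The promoter elements are shown because Ciita acts through X and Y boxes. The pair of cores defined below was found in 5 of the 7 members with a window. By GENCODE M21, all 8 H2 genes of the set lie on chromosome 17. RefSeq windows of 300 bases around the gene start (build GRCm38.p6) were at hand for 7 of the 10 members, with 8 windows. They were searched on the gene strand for GNAAC, a core of the X box, followed by ATTGG, the core of the Y box, with 15 to 45 bases between the starts of the cores, so that the cores never overlap. The letters and the spacing were chosen after the sequences had been seen. The stretch around the cores is printed 5′ to 3′ on the gene strand, with the cores in capitals, for the 5 members with the pair and for H2-DMb2, which lacks the pair at this spacing and is shown around its ATTGG.
H2-Aa (chr17:34287862-34287909, minus strand): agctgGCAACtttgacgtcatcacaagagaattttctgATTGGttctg
H2-Eb1 (chr17:34305771-34305817, plus strand): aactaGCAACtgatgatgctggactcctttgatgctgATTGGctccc
H2-DMb1 (chr17:34153092-34153139, plus strand): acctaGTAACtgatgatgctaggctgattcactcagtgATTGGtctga
H2-DMb2 (chr17:34145124-34145168, plus strand): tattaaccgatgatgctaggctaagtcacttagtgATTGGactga
H2-Oa (chr17:34092298-34092345, plus strand): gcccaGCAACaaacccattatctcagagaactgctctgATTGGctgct
H2-Ob (chr17:34238813-34238857, plus strand): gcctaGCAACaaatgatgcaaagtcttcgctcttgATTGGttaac
The starts of the cores were 33 bases apart in H2-Aa, H2-DMb1 and H2-Oa, 32 in H2-Eb1 and 30 in H2-Ob. Neither window of H2-DMa held the pair. Of 32851 mouse promoter windows of the same length, 2.41% held the pair on the gene strand and 4.87% on either strand. Single cores are common: 37.4% of windows held ATTGG and 84.8% held GNAAC on either strand. A match describes the letters only. No window is shown for Cd74, H2-Ab1 or Ciita.

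Total counts ran from 17550170 to 30614583 per library, and 14683 genes passed the filter on low counts, among them all 10 members. Levels are given as CPM, counts scaled by the library total and its TMM factor, unless stated as CPM of the total, which leaves the factor out. Pairwise r between libraries of an age, over all tested genes, ran from 0.843 to 0.948, and replicates of an age differed by more than sampling noise. Some libraries stood apart. P21 replicate 2 lay apart on both leading principal components. E14.5 replicates 1 and 2 held 1359 to 1648 counts of Xist, where the other 13 libraries held 0 to 81, and 27 to 89 counts of Y-linked genes, where the others held 2733 to 5562. E14.5 replicate 1 also held more chain RNA than its partners, and P56 replicate 4 differed in several of the genes below.

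RNA of the invariant chain and of the alpha and beta chains was low at E14.5 and was higher at each later age. The 4 genes Cd74, H2-Aa, H2-Ab1 and H2-Eb1 together held 0.00659% to 0.0101% of all counts at E14.5, 0.0176% to 0.0378% at P3, 0.0662% to 0.172% at P10, 0.557% to 0.87% at P21 and 2.53% to 3.03% at P56. No library of an age overlapped with one of the next age in this share. In bulk libraries, a larger share of class II cells and more class II RNA per cell cannot be told apart.

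By edgeR's quasi-likelihood test with Benjamini-Hochberg adjustment over all tested genes (called at an adjusted p under 0.05), 7 of the 10 members were higher at P21 than at E14.5. Over all tested genes, 7.81% were called higher in that comparison. Step by step, 4 members were called higher at P3 than at E14.5 (1.67% of all genes), 3 at P10 than at P3 (0.341%), 5 at P21 than at P10 (0.96%) and 3 at P56 than at P21 (0.102%). Libraries of both ages did not overlap, with the older higher, for 5, 6, 7 and 7 members in these steps, against 13.4%, 9.8%, 8.8% and 6.76% of all genes, and for 8 members at P21 vs E14.5, against 16.1%. The median log2 change of the 10 members was 2.03, 1.45, 2.56 and 1.79 in the 4 steps and 5.53 for P21 vs E14.5. The median over all tested genes lay between -0.01 and 0.01 in each. Within the 12 libraries of one sequencing project, 6 of 10 members differed between ages by an F-test over E14.5, P3, P10 and P21 (12.3% of all genes), namely Cd74, the 3 chains, H2-DMa and H2-DMb1.

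Cd74, the invariant chain gene, rose at every step. It had 55.6, 54.2 and 50.8 CPM at E14.5 in replicates 1 to 3, 211, 200.4 and 129 at P3, 927, 879 and 435 at P10, 3541, 4575 and 4541 at P21, and 13730, 15430 and 16600 at P56 in replicates 4 to 6. The libraries of neighbouring ages did not overlap, and replicate 3 was the lowest of its age at P3 and P10. The log2 change was 1.75 ± 0.25 (SE) at P3 vs E14.5 (adjusted p = 0.00203), 2.05 ± 0.25 at P10 vs P3 (0.00255), 2.5 ± 0.25 at P21 vs P10 (0.000589) and 1.85 ± 0.25 at P56 vs P21 (0.00746). From E14.5 to P21 the change was 6.30 ± 0.30 (adjusted p = 1.58e-08), a 78.8-fold higher level at P21. Its call held without each library in turn in all 4 steps. Without both E14.5 libraries rich in Xist, which leaves E14.5 with 1 library, the change at P3 vs E14.5 was 1.84 with an adjusted p of 0.188, and the calls of H2-Aa, H2-DMa and H2-DMb1 in that step were lost too (0.0962 to 0.302).

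**Figure D1:**
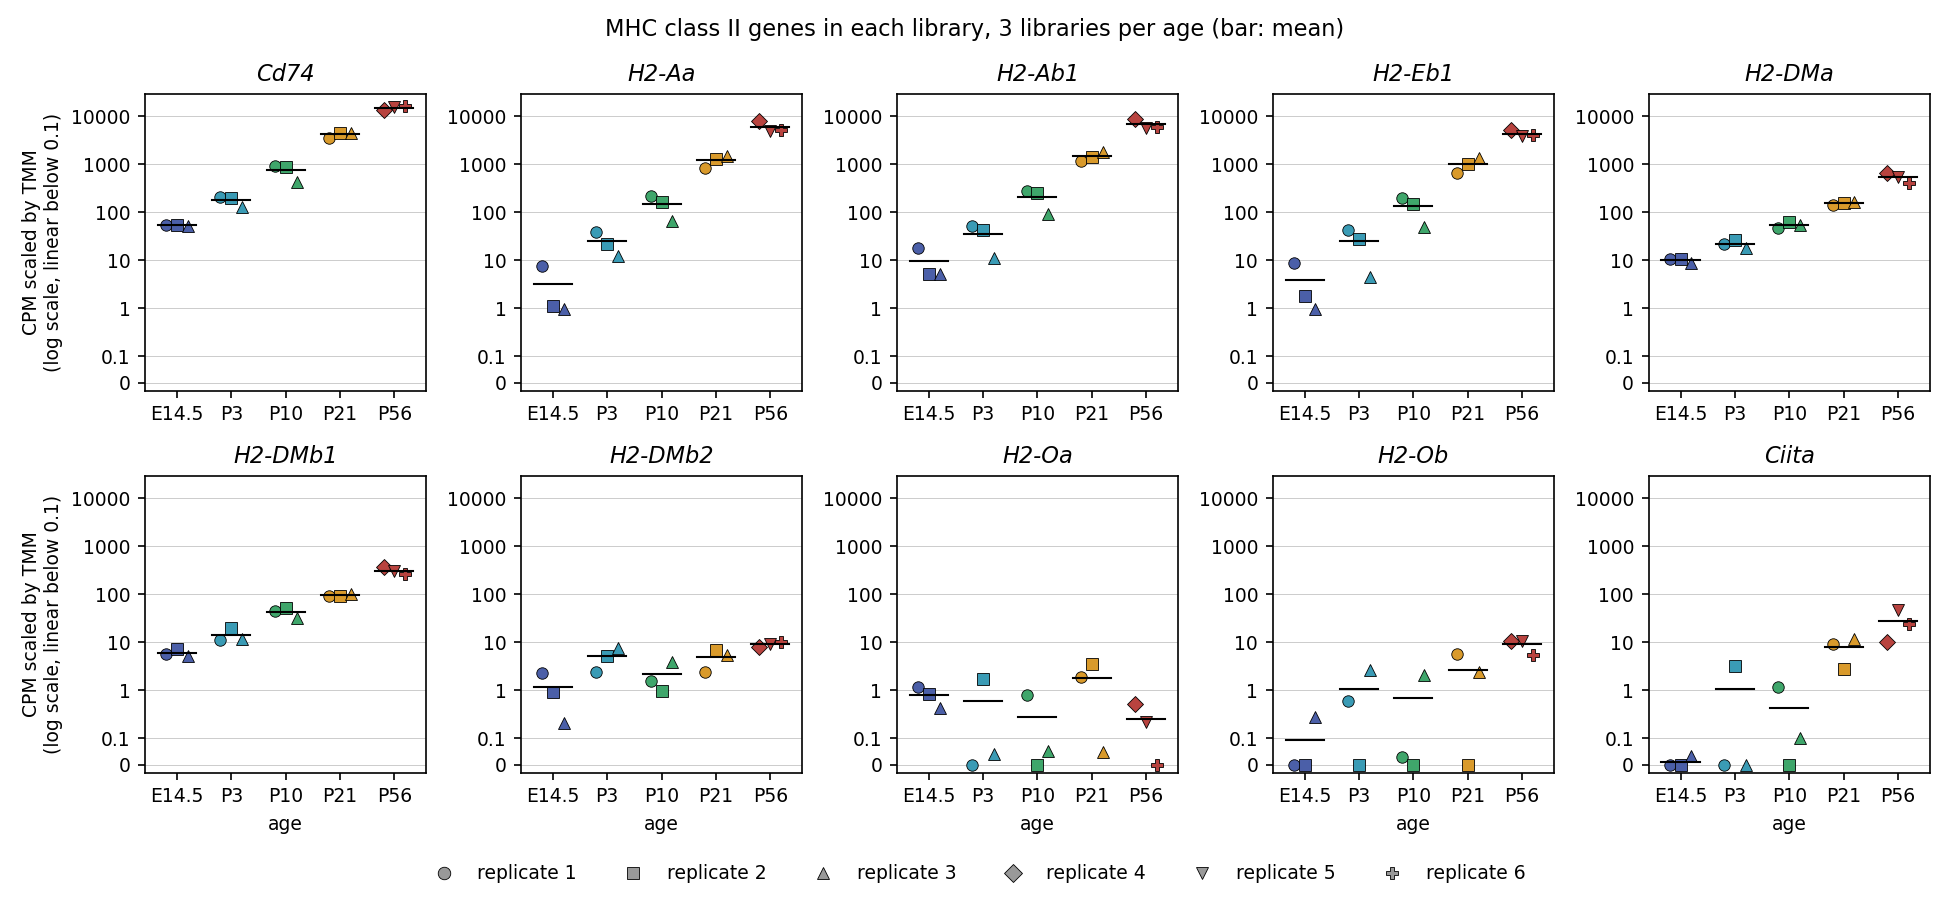
CPM scaled by TMM of the 10 MHC class II genes in each of 15 libraries, on an axis that is logarithmic above 0.1 and linear below, by age on the x axis. Symbols mark replicates and bars the mean of 3 libraries; Cd74, the 3 chains, H2-DMa and H2-DMb1 climb at each age, while H2-Oa, H2-Ob and Ciita have libraries at 0.

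H2-Aa encodes the alpha chain of the H2-A molecule. It had 7.46, 1.10 and 0.939 CPM at E14.5, 39.5, 22.0 and 12.3 at P3, 214, 163 and 65.0 at P10, 821, 1322 and 1525 at P21, and 7893, 5021 and 5193 at P56. The ages did not overlap in any step, but E14.5 replicate 1 lay far above the other embryonic libraries. H2-Aa was 2.99 ± 0.70 higher on the log2 scale at P3 than at E14.5 (adjusted p = 0.0425) and 3.05 ± 0.66 higher at P21 than at P10 (0.0429). The first call was lost without E14.5 replicates 2 or 3 (adjusted p = 0.183 and 0.149), P3 replicates 1 or 2 (0.16 and 0.0871), and P10 replicates 1 or 2, any P21 library or P56 replicates 5 or 6 (0.0506 to 0.0608), and the limma voom fit gave 0.374. The second was lost without any one P10 or P21 library (0.0606 to 0.159), without E14.5 replicate 2 (0.0525), P3 replicate 2 (0.0666) or P56 replicates 5 or 6 (0.0528 and 0.055). The steps of 2.58 ± 0.66 at P10 vs P3 and 2.30 ± 0.64 at P56 vs P21 did not pass (adjusted p = 0.138 and 0.162). The step at P10 vs P3 passed without E14.5 replicate 1 (0.0357) and by DESeq2 (0.0361), and that at P56 vs P21 by limma voom (0.00067).

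H2-Ab1, the beta chain of the same molecule, had 18.4, 5.17 and 5.08 CPM at E14.5, 51.5, 42.6 and 11.4 at P3, 278, 254 and 90.9 at P10, 1146, 1414 and 1830 at P21, and 8691, 5835 and 5885 at P56. P3 replicate 3 lay below E14.5 replicate 1, the one overlap between neighbouring ages. H2-Ab1 rose at P21 vs P10 by 2.82 ± 0.59 on the log2 scale (adjusted p = 0.0365), a call lost without each P10 or P21 library (0.0606 to 0.13), without E14.5 replicate 2 (0.0529) and without P3 replicate 2 (0.056). The changes at P3 vs E14.5 (1.89 ± 0.59), P10 vs P3 (2.56 ± 0.59) and P56 vs P21 (2.22 ± 0.58) had adjusted p of 0.14, 0.0975 and 0.138, and passed by DESeq2 (0.0397, 0.00339 and 0.0134). The P56 step passed by limma voom too (0.000828), and the step at P10 vs P3 with a filter of 5 CPM in 3 libraries (0.0483). Without E14.5 replicate 1, the change at P3 vs E14.5 was 2.78 (adjusted p = 0.0492).

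H2-Eb1, the beta chain that lacks a partner in this strain, had 8.64, 1.80 and 0.939 CPM at E14.5, 42.8, 27.9 and 4.52 at P3, 200, 152 and 50.1 at P10, 668, 1005 and 1324 at P21, and 5130, 3897 and 4025 at P56. The order of its libraries within an age was the order of H2-Ab1 at each of the 5 ages. None of its 4 steps passed the test, with changes of 2.12 to 2.90 on the log2 scale and adjusted p of 0.0968 to 0.286. All 4 had an unadjusted p under 0.05, and DESeq2 called those at P3 vs E14.5 and at P21 vs P10 (adjusted p = 0.016 and 0.00966), while limma voom called those at P21 vs P10 and P56 vs P21 (0.00217 and 0.0036). Without E14.5 replicate 1, the change at P3 vs E14.5 was 4.20 (adjusted p = 0.0438 by edgeR). H2-Ea, the defective partner gene, was listed at 0 in 14 libraries and had 17 counts in P56 replicate 4, and H2-Eb2, a second H2-E beta gene, had 3 counts there and 0 elsewhere.

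Over the whole span from E14.5 to P21 the 3 chains differed far more than any single step, and none of their calls was lost. The log2 change was 8.62 ± 0.87 for H2-Aa (adjusted p = 1.96e-05), 7.27 ± 0.73 for H2-Ab1 (1.99e-05) and 8.07 ± 1.0 for H2-Eb1 (0.000115). H2-Aa averaged 1220 ± 363 CPM at P21 and 3.17 ± 3.72 at E14.5 (SD, n = 3 each). H2-Ab1 averaged 1460 ± 345 and H2-Eb1 999 ± 328 at P21, against 9.55 ± 7.67 and 3.79 ± 4.22 at E14.5. These calls, and those of Cd74, H2-DMa and H2-DMb1, held in 13 other settings and without each of the 15 libraries.

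H2-DMa and H2-DMb1, the chains of the peptide exchanger, rose in every step, with smaller fitted changes than those of the chains. H2-DMa had 10.7, 10.4 and 8.70 CPM at E14.5, 22.1, 26.4 and 17.8 at P3, 48, 62.9 and 54.7 at P10, 143, 155 and 168 at P21, and 649, 548 and 413 at P56. Its libraries lay close together at each age up to P21, and the ages did not overlap. The log2 change of H2-DMa was 1.15 ± 0.19 at P3 vs E14.5 (adjusted p = 0.0055), 1.32 ± 0.19 at P10 vs P3 (0.00602), 1.49 ± 0.19 at P21 vs P10 (0.00206) and 1.79 ± 0.19 at P56 vs P21 (0.00278). The 4 calls held without each library in turn. In fits of only the ages compared, the calls at P3 vs E14.5, P10 vs P3 and P56 vs P21 were lost (adjusted p = 0.0564, 0.05 and 0.0589), and limma voom gave 0.183 and 0.0542 for the first 2 steps.

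H2-DMb1 had 5.82, 7.18 and 5.15 CPM at E14.5, 11.4, 20 and 11.8 at P3, 45.7, 51.1 and 32.6 at P10, 92.3, 93.0 and 103 at P21, and 371, 305 and 267 at P56. It too had no overlap between neighbouring ages, with changes of 1.25 ± 0.24 (adjusted p = 0.0148), 1.58 ± 0.24 (0.00809), 1.16 ± 0.23 (0.032) and 1.71 ± 0.24 (0.0075) on the log2 scale. The first was lost without E14.5 replicate 1 (0.0681), E14.5 replicate 3 (0.072) or P3 replicate 2 (0.0605). The second was lost without P3 replicate 1 (0.0661), P3 replicate 3 (0.0688) or P10 replicate 2 (0.0503), and the third without each P10 or P21 library (0.0617 to 0.123). In fits of only the ages compared all 4 were lost (0.0964, 0.0712, 0.0846 and 0.0556), limma voom gave 0.246 for the first, and scaling by total counts gave 0.0664 for the third. From E14.5 to P21, H2-DMa changed by 3.97 ± 0.21 (adjusted p = 3.07e-08) and H2-DMb1 by 3.99 ± 0.26 (2.92e-07), that is, 15.6-fold and 15.9-fold higher at P21.

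**Figure D2:**
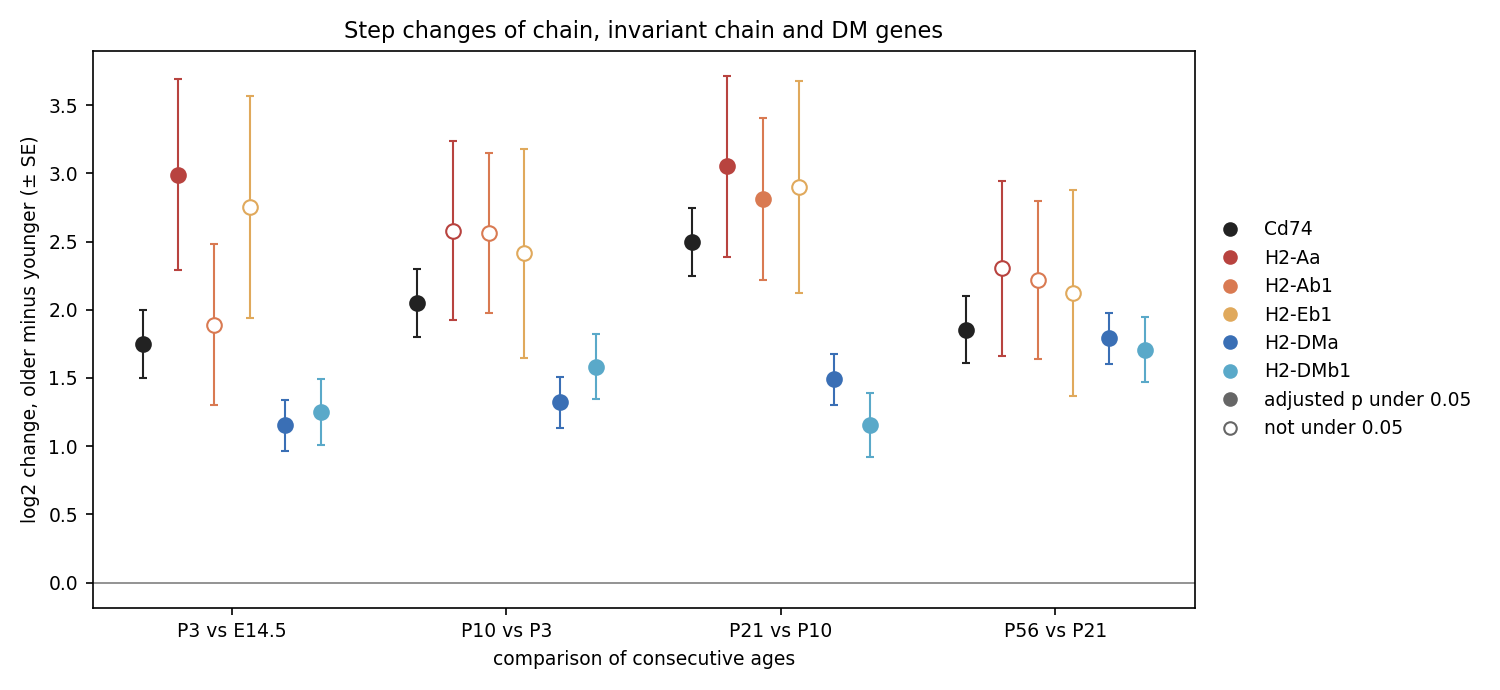
Log2 change (older minus younger, ± SE from the edgeR fit) of Cd74, 3 chain genes and 2 DM genes in the 4 steps between consecutive ages on the x axis, with filled points for an adjusted p under 0.05. Every change is above 0; at P21 vs P10 Cd74 stands at 2.5, H2-Aa at 3.05 and H2-DMb1 at 1.16, and the error bars of the 3 chains are wider than those of Cd74 and the DM genes.

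H2-DMb2, a second beta chain gene of H2-DM, stayed low. It had 53, 25 and 6 counts at E14.5, 81, 100 and 185 at P3, 51, 22 and 76 at P10, 48, 130 and 113 at P21, and 141, 167 and 184 at P56. Its P3 and P56 libraries lay above those of the age before, and the libraries overlapped in its other steps. None of the 4 steps passed the test (adjusted p = 0.3 to 0.751 by edgeR). H2-DMb1 and H2-DMb2 resemble each other: 22.7% of the 50-base stretches of H2-DMb1 transcripts in GENCODE M21 also occur in H2-DMb2, and 24.8% of those of H2-DMb2 occur in other genes. How the authors' counting treated such reads is not given in the sources used here, so the split between both genes is uncertain. The H2-DMb2 change from E14.5 to P21 was 2.09 ± 0.87 on the log2 scale (adjusted p = 0.147 by edgeR and 0.0498 by DESeq2).

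H2-Oa and H2-Ob, the chains of the DM inhibitor, had libraries at 0 counts and passed the test in no step. H2-Oa had 27, 23 and 12 counts at E14.5, 0, 34 and 1 at P3, 26, 0 and 1 at P10, 38, 67 and 1 at P21, and 9, 4 and 0 at P56. H2-Ob had 0, 0 and 8 counts at E14.5, 20, 0 and 62 at P3, 1, 0 and 41 at P10, 117, 0 and 49 at P21, and 187, 197 and 98 at P56. Within P21 alone H2-Ob ran from 0 to 117 counts, and neighbouring ages overlapped in every step for both genes. A floor of 3 counts over an age corresponds to 0.0417 to 0.0466 CPM of the total. In those steps adjusted p by edgeR ran from 0.59 to 0.981. The H2-Ob counts of all 3 libraries summed to 482 at P56 and 8 at E14.5, a ratio of 64.9 between the shares of the total count, with a 95% exact interval of 32.7 to 151 that covers counting error only.

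Ciita, the transactivator, was close to undetected before P21. It had 0, 0 and 1 counts at E14.5, 0, 61 and 0 at P3, 38, 0 and 2 at P10, 185, 53 and 243 at P21, and 174, 864 and 434 at P56. At P3 and P10 a single library held nearly all of the counts, while all 3 libraries of P21 lay above all 3 of P10. P3 and P21 overlapped, with 3.153 CPM in P3 replicate 2 and 2.765 in P21 replicate 2. Cd74 in the libraries without Ciita counts ran from 1281 to 19582 counts. Ciita RNA was called higher at P21 than at E14.5 (adjusted p = 0.0266), with 481 counts at P21 and 1 at E14.5, a ratio of 507 between the shares of the total count (95% exact interval 90.6 to 20100, counting error only). The call was lost without any one E14.5 library (0.0939 to 0.11), without both libraries rich in Xist (0.462), with no filter on low counts (0.0935), in the 12 libraries of one sequencing project (0.0587), with the replicate number as a block (0.0984) and against a log2 change of at least 1 (0.0863). None of the 4 steps passed, although the steps at P3 vs E14.5 and P21 vs P10 had unadjusted p of 0.021 and 0.0349, and DESeq2 called none either. The F-test over E14.5 to P21 gave an adjusted p of 0.131. It passed with no filter (0.0477), by DESeq2 (0.0304), by limma voom (0.0399) and without P3 replicate 2, the library with 61 counts (0.0274).

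Per kilobase of exon (union of all GENCODE M21 exons, which need not be the authors' annotation), the order of the 6 most abundant members was the same at P10, P21 and P56. At P21 Cd74 led with 2510 ± 347 CPM per kb, followed by H2-Ab1 with 570 ± 135, H2-Eb1 with 514 ± 169 and H2-Aa with 322 ± 95.7, H2-DMb1 with 57.2 ± 3.64 and H2-DMa with 45 ± 3.55 (SD, n = 3). The mean ± SD ranges of H2-Ab1 and H2-Eb1 overlapped, as did those of H2-Eb1 and H2-Aa, and those of H2-DMb1 and H2-DMa did not. The SD does not cover the choice of exon length. In CPM without length, the means at P21 were 155 for H2-DMa and 96.2 for H2-DMb1, and 1220 for H2-Aa and 999 for H2-Eb1. H2-DMb2 with 2.78 ± 1.3, H2-Oa with 1.28 ± 1.22, Ciita with 0.823 ± 0.483 and H2-Ob with 0.5 ± 0.533 made up the low end, where neighbours overlapped. At E14.5 the middle of the order differed, with 3.72 ± 2.99 CPM per kb for H2-Ab1, 3.6 ± 0.616 for H2-DMb1, 2.88 ± 0.314 for H2-DMa, 1.95 ± 2.17 for H2-Eb1 and 0.836 ± 0.983 for H2-Aa.

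Within each library, the DM genes lost ground to Cd74 with age. H2-DMa had 19.2, 19.2 and 17.1 counts per 100 counts of Cd74 at E14.5, 10.5, 13.2 and 13.8 at P3, 5.18, 7.15 and 12.6 at P10, and 4.04, 3.38 and 3.69 at P21. H2-DMb1 had 10.5, 13.3 and 10.1 at E14.5, 5.43, 9.98 and 9.18 at P3, 4.93, 5.81 and 7.50 at P10, and 2.61, 2.03 and 2.27 at P21. These ratios carry no correction for gene length and are read only across libraries, where library scaling cancels. In an exact permutation test of the F statistic over the 12 libraries from E14.5 to P21 (369600 arrangements, adjusted over 9 genes), the log2 ratio to Cd74 differed between ages for H2-DMa and H2-DMb1 (adjusted p = 0.00409 for both). The log2 ratio at P21 was below that at E14.5 by 2.33 for H2-DMa and 2.29 for H2-DMb1 (differences of -2.33 and -2.29), and for both genes no P21 library overlapped with an E14.5 library. At P56 the ratios of both genes, 2.49 to 4.73 and 1.61 to 2.7, overlapped with those of P21.

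The 3 chains had higher ratios to Cd74 at P21 than at E14.5, but the ratios did not pass the test unless E14.5 replicate 1 was left out or, for H2-Aa and H2-Eb1, another setting was used. H2-Aa had 13.4, 2.03 and 1.85 counts per 100 of Cd74 at E14.5, 18.7, 11.0 and 9.54 at P3, 23.1, 18.6 and 14.9 at P10, 23.2, 28.9 and 33.6 at P21, and 57.5, 32.5 and 31.3 at P56. The log2 ratio at P21 exceeded that at E14.5 by 2.92 for H2-Aa, 2.31 for H2-Eb1 and 1.22 for H2-Ab1, with adjusted p of 0.058, 0.125 and 0.214 in the exact permutation test. Without E14.5 replicate 1 the differences were 3.84, 3.19 and 1.81, with adjusted p of 0.0076, 0.0389 and 0.0389. A pseudocount of 5 gave 0.0478 for H2-Aa, and permuting within replicate numbers gave 0.00521 for H2-Aa and 0.0234 for H2-Eb1. In that library H2-Aa, H2-Ab1 and H2-Eb1 had 172, 424 and 199 counts, against 27 to 30, 141 to 146 and 27 to 49 in the other 2 embryonic libraries, while its CPM of Cd74 and H2-DMa were close to those of its partners and that of H2-DMb1 lay between them. The mast cell marker sum was 126 CPM of the total in E14.5 replicate 1, against 4.24 and 2.11 in replicates 2 and 3, and its part in the chain counts was not tested. By age this sum was 2.11 to 126 at E14.5, 636 to 1760 at P3, 173 to 435 at P10, 4.05 to 11 at P21 and 10.2 to 291 at P56. Of 8 mast cell markers, 1 (Mcpt4) was called higher at P3 than at E14.5, against 1.67% of all genes. The part of these markers in the class II counts of these ages was not tested either.

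**Figure D3:**
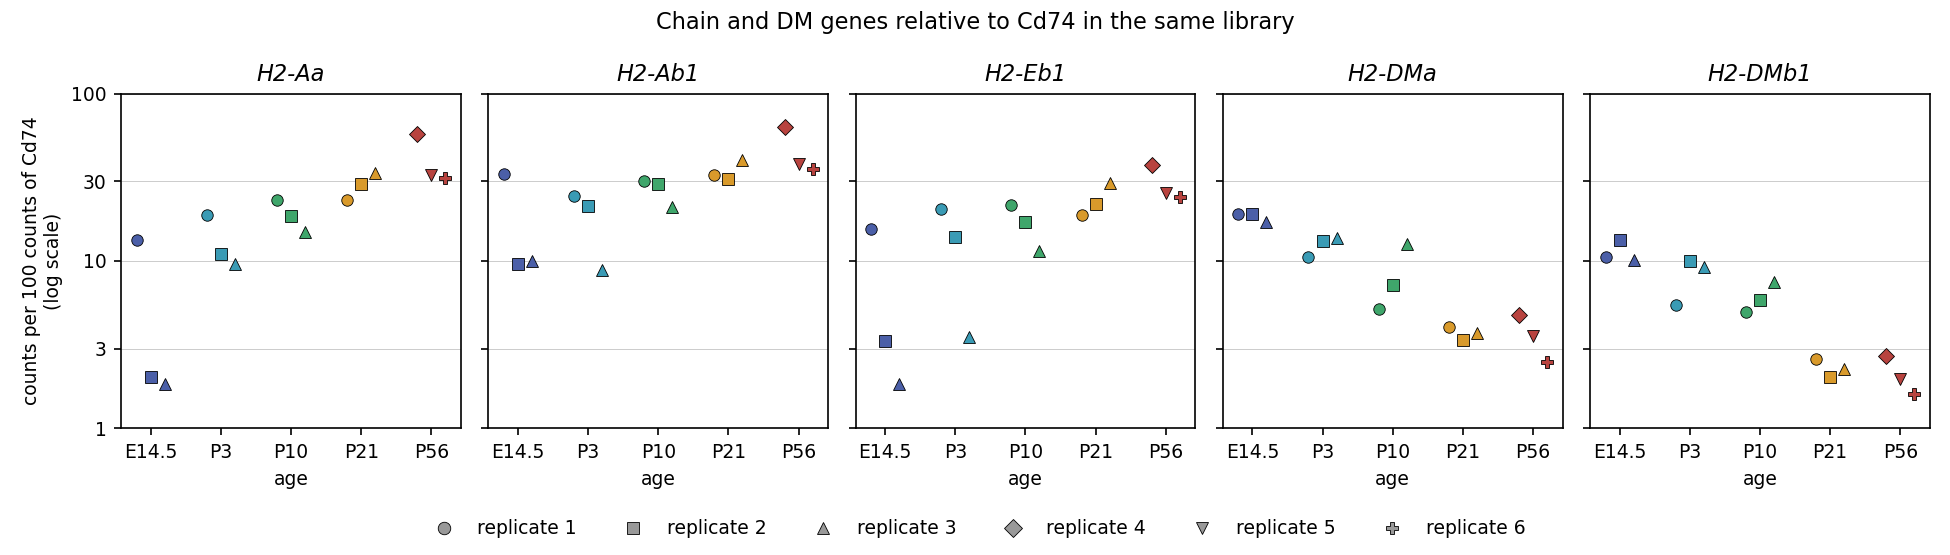
Counts of 3 chain genes and 2 DM genes per 100 counts of Cd74 in the same library (log axis), by age on the x axis, with symbols for replicates. H2-DMa falls to 3.38 to 4.04 at P21, against 17.1 to 19.2 at E14.5; E14.5 replicate 1 and P56 replicate 4 lie above the other libraries of their age in the 3 chain panels.

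Of the other members, H2-DMb2 fell against Cd74 from E14.5 to P21 (difference -3.79 on the log2 scale, adjusted p = 0.0364), a call that was lost without E14.5 replicate 2, P10 replicates 1 or 2, or any one library of P3 or P21 (0.053 to 0.101), and when permuted within replicate numbers (0.0938). The ratios of H2-Oa, H2-Ob and Ciita did not pass (adjusted p = 0.125, 0.634 and 0.634). With a pseudocount of 5 that of H2-Oa passed (0.0197), and the Ciita difference was -1.19 in place of 1.63. For Ciita the ratio spread widely: libraries held 0 to 1.57 counts per 100 of Cd74 at P3 and 0.0604 to 0.258 at P21. With H2-Aa in place of Cd74 as the base, 6 of the other 9 genes differed between ages.

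The DNA-binding partners of Ciita are subunits of RFX, NF-Y and CREB. Of 7 such genes, 1 was called higher and 0 lower at P21 than at E14.5, against 7.81% and 4.37% of all genes (median log2 change -0.30, and -0.01 over all genes), with 1 higher and 1 lower by unadjusted p and the same by DESeq2. The one was Rfxap, an RFX subunit, at 49.4 CPM at P21 and 28.7 at E14.5 (0.78 ± 0.23, adjusted p = 0.0405). Rfx5, the largest RFX subunit, averaged 1.49 CPM at P21 and 6.84 at E14.5 (-2.19 ± 1.06, adjusted p = 0.208), with 0 counts in P21 replicate 2. No gene of the 7 passed in any step by edgeR or by DESeq2, and 1 was higher with an unadjusted p under 0.05 at P21 vs P10 and 1 at P56 vs P21.

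Genes that carry the interferon-gamma signal to Ciita were mixed. Of 8, 3 were higher at P21 than at E14.5, against 7.81% of all genes (median 0.36), among them Irf1, a transcription factor that acts on the inducible Ciita promoter, with 775 CPM at P21 and 243 at E14.5 (1.67 ± 0.34, adjusted p = 0.00502) and Ifngr1, a receptor chain, with 696 and 488 (0.51 ± 0.14, adjusted p = 0.0288). Of 4 myeloid regulators of Ciita, 1 was called lower at P21 than at E14.5, against 4.37% of all genes. This was Prdm1, the repressor known as Blimp-1, which averaged 7.45 CPM at P21 and 33.4 at E14.5 (-2.16 ± 0.36, adjusted p = 0.00125). At P56 it averaged 34.0 CPM, above P21 (2.19 ± 0.36, adjusted p = 0.0239), and that step again joins age and project. Spi1 (PU.1), Irf8 and Irf4 were not called in any comparison by edgeR, with 498 CPM of Spi1 at P21 and 417 at E14.5. Irf8 averaged 416 CPM at P56 and 241 at P21, without overlap between libraries (0.79 ± 0.16, adjusted p = 0.0643 by edgeR). Of the 4 regulators, DESeq2 called 2 higher at P56 than at P21, where edgeR called 1 (0.102% of all genes).

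Among 10 genes of the antigen-processing route, 5 were higher at P21 than at E14.5, against 7.81% of all genes (median 0.48). Ctss, cathepsin S, which makes the last cuts in the invariant chain, averaged 2760 CPM at P21 and 902 at E14.5 (1.61 ± 0.16, adjusted p = 1.9e-05). The others were Npc2 (1.03 ± 0.11), Scarb2 (0.79 ± 0.17), Lgmn, the asparagine endopeptidase (0.61 ± 0.10), and Ctsb (0.35 ± 0.11). Ifi30, the thiol reductase of endosomes, went the other way at P21 vs P10, with 161 CPM at P21 and 289 at P10 (-0.84 ± 0.18, adjusted p = 0.0374). These differences were small beside those of Cd74 and the chains.

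Of 9 genes of class II turnover and costimulation, 3 were higher at P21 than at E14.5, against 7.81% of all genes (median 1.11). Cd40, the receptor for T cell help, averaged 39.1 CPM at P21 and 1.38 at E14.5 (4.82 ± 0.56, adjusted p = 6.62e-05), and was already higher at P3 than at E14.5 (2.39 ± 0.51, adjusted p = 0.0253). Cd83, which restrains removal of class II from the surface, averaged 5260 CPM at P21 and 1100 at E14.5 (2.25 ± 0.34, adjusted p = 0.000541). Icosl, a costimulatory ligand, averaged 42.2 CPM at P21 and 19.5 at E14.5 (1.11 ± 0.30, adjusted p = 0.0271), with 11.5 at P10. Marchf1, the ubiquitin ligase that sends class II to lysosomes, averaged 67.0 CPM at P21 and 37.9 at E14.5 and was not called (0.82 ± 0.42, adjusted p = 0.235).

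The sorted cells carried macrophage genes at every age. The 12 macrophage identity genes, Mrc1, Csf1r and C1qa among them, summed to 18700 to 30800 CPM of the total over all libraries, and at P21 vs E14.5 7 were called higher and 1 lower, against 7.81% and 4.37% of all genes. Other cells that carry class II gave lower sums that differed by age. The 11 dendritic cell markers had a sum between 64.8 and 76.1 CPM of the total at E14.5, 46.4 to 54.1 at P3, 81.5 to 106 at P10, 169 to 290 at P21 and 201 to 385 at P56. Most of this was Siglech, Cd209a and Zbtb46. At P21 vs E14.5 Batf3, Cd209a and Siglech were called higher and Xcr1 lower, among 8 tested, against 7.81% and 4.37% of all genes. Clec9a was at 0 in all but 1 library and Flt3 reached 2.02 CPM of the total at most. Xcr1 averaged 1.81 CPM at E14.5, 1.32 at P10, 0 at P21 and 1.07 at P56. Zbtb46 averaged 17.4 CPM at E14.5 and 27.8 at P21, Cd209a 0.0701 and 50.2, and Batf3 2.12 and 10.8.

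The 11 B cell markers had a sum between 531 and 696 CPM of the total at E14.5, 357 to 533 at P3, 778 to 906 at P10, 975 to 1020 at P21 and 878 to 1100 at P56, mostly Ighm, Blnk and Cd79b. Of the defining markers, Pax5 reached 0.159 CPM of the total at most. At P21 vs E14.5 Ighm, Blnk and Cd22 were called higher among 6 tested, against 7.81% of all genes. The 7 monocyte markers had a sum between 18 and 36.7 CPM of the total at E14.5, 45.8 to 54.9 at P3, 22.5 to 60 at P10, 79.6 to 141 at P21 and 52.4 to 460 at P56, mostly Ccr2 at P21 and P56, which was called higher at P21 than at E14.5 (2.33 ± 0.70, adjusted p = 0.0425). Ly6c2 reached 4.38 CPM of the total at most. The dendritic, B cell and monocyte sums were all higher at P21 than at E14.5, as were the chains, and their part in the class II counts was not tested. Fibroblast markers had sums between 64.9 and 699 CPM of the total at E14.5, 545 and 2490 at P3, 738 and 2800 at P10, 1080 and 1960 at P21, and 144 and 226 at P56. The 4 chain genes had sums between 5570 and 8700 CPM of the total at P21.

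**Figure D4:**
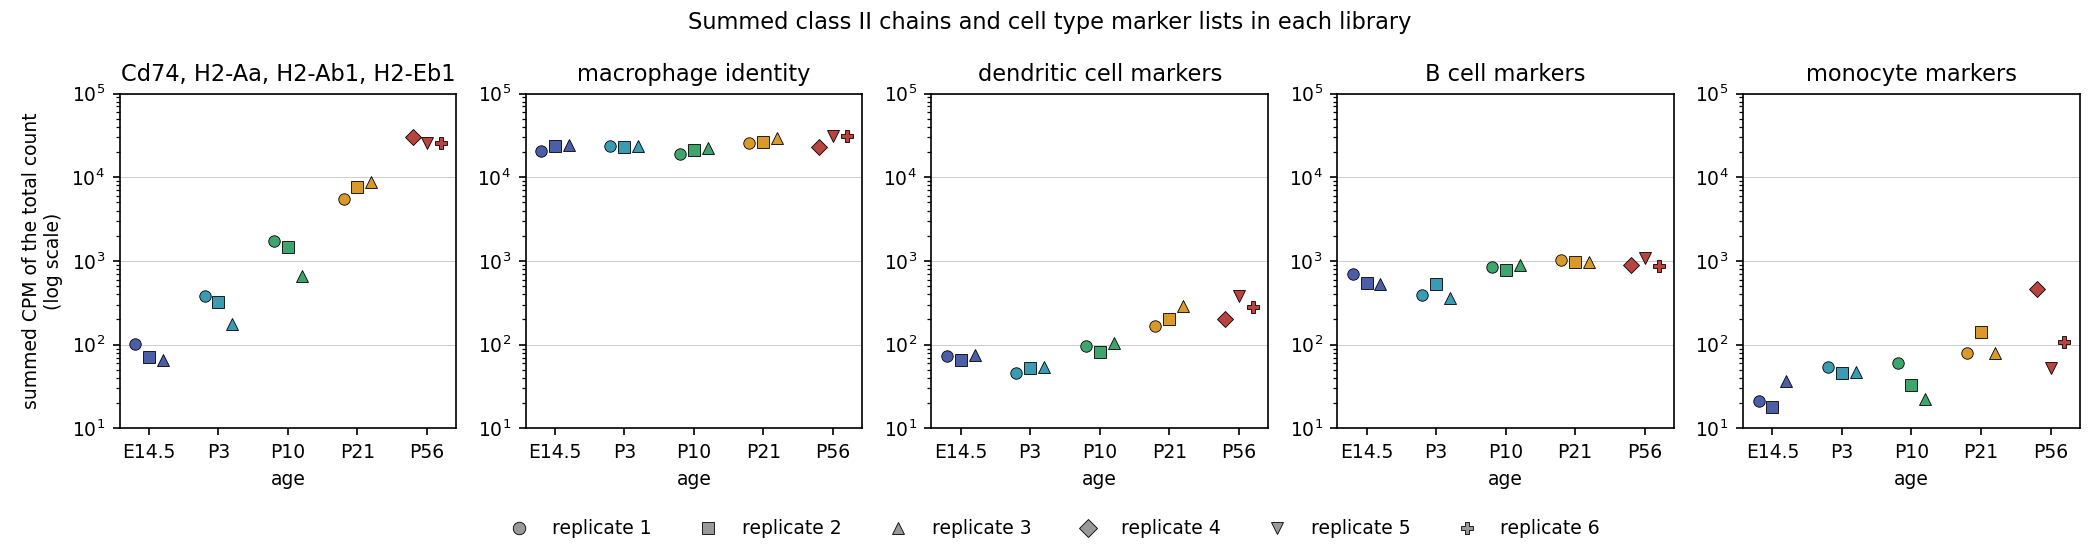
Summed CPM of the total (log axis) of the 4 chain genes and of 4 marker lists in each library, by age on the x axis, with symbols for replicates. The chain sum runs from 65.9 at E14.5 to 30300 at P56, while the dendritic cell markers run from 46.4 to 385 and the macrophage identity genes from 18700 to 30800 over all libraries.

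P56 replicate 4 departed from its partners in several genes at once. It had 57.5 counts of H2-Aa per 100 of Cd74, where replicates 5 and 6 had 32.5 and 31.3, and 63.3 of H2-Ab1, where they had 37.8 and 35.4. Its Cd74 was the lowest of the 3, its H2-DMa and H2-DMb1 the highest, and its Ciita the lowest, with 174 counts where the others had 864 and 434. It also held 460 CPM of the total of Ccr2, against 52.3 and 105, and 204 of Irf1, against 566 and 688. The 3 members called higher at P56 than at P21 (Cd74, H2-DMa and H2-DMb1) stayed called without it, and without every other library in turn.

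Apart from the members, the genes whose log2 CPM followed that of Cd74 most closely over the 12 libraries from E14.5 to P21, among 7560 that reached 20 CPM at some age, were AW112010 (Pearson r = 0.987), Mgl2 (0.985), Il1b (0.983), Trf (0.98), C1qb (0.978), Clec10a (0.977), Cst3 (0.975) and Cd14 (0.974). Mgl2 and Clec10a encode galactose-type lectins, C1qb a complement chain and Cst3 the cathepsin inhibitor cystatin C. Over the same 12 libraries, but on log2 CPM with another offset, Cd74 had r of 0.991 with H2-DMa and 0.986 with H2-Ab1. It had 0.985 with H2-Aa and with H2-DMb1, and 0.977 with H2-Eb1. The genes most like Ciita had lower values, led by Rnf19b (0.909), Slc14a1 (0.907) and Cdc42ep2 (0.89). Tmem167b (0.883), Phf11d (0.881), Abhd16a (0.869) and Slc29a1 (0.865) followed. Ciita had r of 0.766 with Cd74, with the offset used between members, so this value is not on the scale of the likeness values. The libraries share age, so any gene that rises with age scores high, and these values describe likeness only.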

How the data were processed

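CD206-positive dural macrophages were sequenced in 15 libraries. Per the labels' protocols, Nextera XT libraries were built from cDNA amplified with a SMARTer Ultra Low Input kit, with no molecular identifiers named. The values are the deposited raw counts per gene symbol. The tools named are featureCounts 2.0.2, STAR 2.7.8a and bcl2fastq 2.18, per the submitters' processing notes. Genome build, annotation, strand and multi-mapping settings are not given in the sources used here.

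Tests used edgeR 4.0.16 (R 4.3.3), in 1 fit of 15 libraries by age, TMM scaling, filterByExpr by age, robust quasi-likelihood F-tests, and Benjamini-Hochberg adjustment over 14683 genes, called under 0.05. SE is the log2 change divided by the root of F. Ratios to Cd74 used a pseudocount of 0.5 and an exact permutation test. Correlations used log2 CPM with a prior count of 2, except those between members, which used log2 of CPM plus 1. Alternatives were other scalings and filters, thinning, DESeq2 1.42.0, limma voom 3.58.1, a replicate block and leaving out each library. The edgeR fit was tested on simulated data. Totals ran from 17550170 to 30614583 counts. Precision was lowest for Ciita, H2-Oa and H2-Ob, which had the largest SE of the 10 members. All 10 members were described. List genes were named where called, plus Rfx5, Marchf1, Spi1, Irf8, Irf4 and some cell type markers that were not called. For likeness those among the 8 genes most correlated with Cd74 and with Ciita were named. A few genes that these rules name are not reported here. Members, lists and tests were chosen with earlier results of these data known.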

Additional observations from a re-analysis of the deposited data

How the results depend on the processing

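The number of members called depended on the fit. At P3 vs E14.5 it was 4, but 6 by DESeq2, 1 in a fit of only the ages compared, 1 by limma voom, 0 against a log2 change of at least 1 and 0 in the 13 libraries rich in Y-linked transcripts (chosen after seeing the data, with 1 library left at E14.5). At P10 vs P3 it was 3, with 1 for only the ages compared, 5 by DESeq2 and 0 against the log2 change of 1. At P21 vs P10 it was 5, with 2 when scaled by total counts only, 3 with no filter and 1 against the log2 change of 1. At P56 vs P21 it was 3, with 1 for only the ages compared, 6 by limma voom and 0 against the log2 change of 1. Ratios to Cd74 differed for 3 members, but for 5 with a pseudocount of 5, and 6 differed with H2-Aa as the base. P21 vs E14.5 gave 6 to 8 members, and the F-test over E14.5 to P21 gave 6 or 7, under every alternative run. The cause was not tested.

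Leaving out each library in turn gave 2 to 5 members at P3 vs E14.5, 2 to 4 at P10 vs P3, 2 to 5 at P21 vs P10, 3 each time at P56 vs P21, 6 or 7 at P21 vs E14.5, 6 or 7 in the F-test and 2 to 6 for the ratio. No pairing of libraries by replicate number was detected, as the correlation of deviations of the 18 same-numbered pairs ran from -0.055 to 0.062. With the replicate number as a block, 4 members were called at P3 vs E14.5, 3 in the next step, 5 at P21 vs P10, 6 at P21 vs E14.5, 6 in the F-test and 4 in the ratio.

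Of all tested genes, 302, 59, 168, 40 and 1789 were called in the 5 comparisons and 1759 in the F-test, against 825, 334, 748, 524, 2782 and 3226 by DESeq2. A fit of only the ages compared called 681, 87, 73, 3 and 1438, and the log2 change of 1 called 36, 1, 4, 0 and 354. The 13 libraries called 22 and 374 at P3 and P21 vs E14.5. Other settings moved the count by over 1.5 times at P10 vs P3 (116 with no filter, 91 at 5 CPM in 3 libraries, 109 in the 12 libraries of one project, 94 by voom), at P21 vs P10 (326 in the 12 libraries, 258 with the replicate block, 261 by voom) and at P56 vs P21 (72 by total counts, 101 with no filter). Counts of H2-Oa, H2-Ob and Ciita were too low in single libraries to follow below P21. This limit held at P21 too for H2-Oa (1 to 67 counts) and H2-Ob (0 to 117), and at P56 for H2-Oa (0 to 9).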
